A study of Homo sapiens and Mus musculus with 12 samples.

Results

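A375 is an established human melanoma cell line, and the comparison described here is that of its input RNA, the RNA of the lysate before a sucrose gradient, between a state labelled S and a state labelled P. Members are the genes whose mean was at least 1 TPM (transcripts per 1000000 transcripts, a read density per gene length that is scaled within a library) over the 6 A375 libraries. These were 12638 of the 16782 genes listed for A375 (75.3%), and of 29493 gene rows in the whole series. The series holds 12 polysome profiling libraries of A375 and of the mouse melanoma line Yumm1.7, with an input, a monosome and a polysome library for each state of each line. Per the series description the states are parental cells and drug-tolerant persister cells derived from them, which live through a drug without being stably resistant to it. Drug, dose, time and genotype are absent from the labels, and so is the meaning of the letters P and S. The letters are therefore kept, and nothing below says which state is the persister. Each group holds 1 library. No difference therefore has a replicate check, and no test, p-value or standard error is given. The depth behind each value is unknown, since TPM does not keep it.

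Melanoma cells arise from melanocytes, which derive from the neural crest, and can shift between states that resemble pigment cells, undifferentiated neural crest cells or glial cells without a new mutation. Cells that leave the cell cycle usually scale down the making of ribosomes, nucleotides and nuclear proteins, and often enlarge their lysosomes, the acidic organelles that digest proteins, lipids and sugars. Tumour cells can also change the molecules by which they attach to matrix, send guidance cues to neighbours and show peptides to T cells on MHC proteins. Cell cycle and MAPK pathway genes held many of the largest differences between these 2 libraries. They are left aside as lists of their own (262 and 44 genes tested), and the other gene families are described. Genes of those 2 lists that also belong to another list are still counted there.

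Each gene was compared as log2(TPM + 1) of S minus that of P, less the value of the median gene, which was -0.20. All log2 differences below are on this scale, which understates the difference of genes with low TPM. By this measure 1969 genes (15.6%) were at least 2-fold higher in S and 2048 (16.2%) at least 2-fold lower. The counts given for lists below are to be set beside these shares. Without subtracting the median gene, 1498 were higher and 2642 lower, so that higher genes made up 36.2% of the genes counted in place of 49.0%. The genes counted as higher held 9.37% of the listed TPM in P and 28.6% in S, and those counted as lower 21.5% in P and 5.65% in S. In the plot of P against S input values the coloured families lie on different sides of the line of the median gene.

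**Figure D1:**
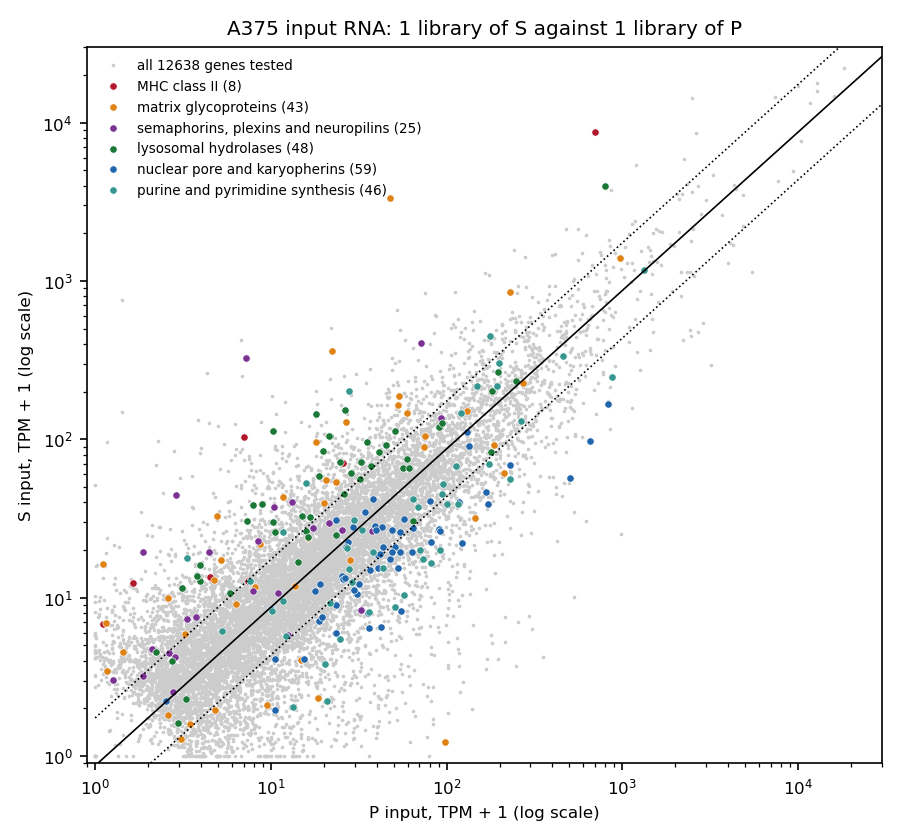
Input TPM + 1 of every gene tested in P (horizontal) and S (vertical), both on log axes, with 6 gene lists coloured and their number of genes tested in brackets. The solid line marks the median gene and the dotted lines 2-fold around it. MHC class II, lysosomal and semaphorin genes lie mostly above the solid line, and nuclear pore genes mostly below it.

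The labelled cell type was set against markers of its lineage and of other cells. SOX10, the transcription factor that specifies melanocytes and glia, had 156 TPM in P against 217 in S. S100B, a calcium-binding protein used as a melanoma marker, had 332 TPM in P against 314 in S. The pigment enzyme genes TYR and TYRP1 and the melanocyte antigen gene MLANA were either not listed or below the level for entry. Of markers of other cell types, 2 of 15 keratinocyte, 5 of 16 fibroblast, 3 of 20 leukocyte, 1 of 12 endothelial and 4 of 11 adipocyte genes reached the level for entry. The defining genes PTPRC, PECAM1, COL1A1, KRT5 and ADIPOQ were not listed at all. The fibroblast markers tested summed to 94.4 TPM in P against 77.4 in S, and the leukocyte markers to 9.88 against 5.24. The keratinocyte markers summed to 113 TPM in P against 159 in S, and the adipocyte markers to 42.4 against 64.1. Their part in the differences below was not tested. Single members stood apart: EGFL7, a secreted protein best known from blood vessels, had 6.66 TPM in P against 70.3 in S, and FAP, a surface protease of activated fibroblasts, 0.161 TPM in P against 7.63 in S. Fewer cells of a kind and less RNA per cell cannot be told apart in such bulk libraries.

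Transcript length was set beside the differences as a check. Over the 11844 genes with a length in GENCODE release 29, Spearman's rank correlation across genes, which are not independent replicates, was -0.040. The 2965 genes with the shortest transcripts had a median log2 difference of 0.09, and 20.2% of them were at least 2-fold higher. For the 2959 genes with the longest transcripts the median was -0.04 and the share 11.7%.

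Genes of antigen presentation by MHC class II, the proteins that show peptides from the endosome and lysosome to helper T cells, had the highest median of the 113 lists with at least 5 genes tested. Of 8 genes tested 7 were at least 2-fold higher in S and none lower, against 15.6% of all genes higher, and the median log2 difference was 2.45. In all 3 kinds of library 6 of the 8 were at least 2-fold higher in S, against 6.24% of all genes. CD74, the invariant chain that chaperones class II dimers and fills their groove, had 701 TPM in P against 8722 in S. That made it the gene with the largest gain in TPM of all genes outside the mitochondrial genome. HLA-DRA, the alpha chain of HLA-DR, had 6.05 TPM in P against 103 in S, and HLA-DPA1 had 24.7 TPM in P against 69.6 in S. The editing chaperone that loads peptides was higher in both its chains, with 2.12 TPM in P against 10.5 in S for HLA-DMA and 0.645 TPM in P against 11.4 in S for HLA-DMB. HLA-DOA, a chain of the protein that restrains HLA-DM, had 0.109 TPM in P against 5.86 in S. CIITA, the transactivator on which class II transcription depends, stood at 3.52 TPM in P against 12.5 in S. The member that missed the 2-fold mark was HLA-DPB1, with 6.42 TPM in P against 11.7 in S and a log2 difference of 0.98. HLA-DQA1 and HLA-DQB1 were not listed and HLA-DRB1 was below the level for entry. Because HLA genes are highly variable and alike in sequence, the split of reads between single members is uncertain.

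The class I arm, which shows peptides from the cytosol to killer T cells, lay the same way with a median of 0.90 (8 of 16 genes at least 2-fold higher and none lower). HLA-E, a ligand of natural killer cell receptors, had 6.08 TPM in P against 32.9 in S. The peptide-loading bridge TAPBP had 6.22 TPM in P against 23.4 in S. PSMB10, a subunit of the immunoproteasome, had 38.4 TPM in P against 103 in S, and ERAP1, which trims peptides in the endoplasmic reticulum, 15.5 TPM in P against 35.4 in S. The loading and trimming factors named here thus differed in the same direction as HLA-E.

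Among genes that interferon induces 12 of 41 (29.3%) were at least 2-fold higher and 4 (9.76%) lower, with a median of 0.58. Over all genes the shares were 15.6% and 16.2%. The membrane proteins that hinder virus entry led the list. IFITM1 had 1.42 TPM in P against 44.6 in S, IFITM3 had 239.6 TPM in P against 1573 in S and IFITM2 had 133 TPM in P against 402 in S. IRF9, the DNA-binding part of the factor that carries type I interferon signals, had 0.732 TPM in P against 10.1 in S. Not every member followed. The RNA sensors OAS1 and OAS3 were lower, with 5.56 TPM in P against 1.75 in S for the first and 10.2 TPM in P against 2.25 in S for the second, as was the scramblase PLSCR1 at 62.1 TPM in P against 18.1 in S.

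The core of the interferon-stimulated response element was searched on both strands of RefSeq promoters, taken as 250 bases before to 50 after each gene start (GRCh38.p14). Of the interferon-stimulated genes with a promoter in that table, 19 of 32 (59.4%) held it, against 996 of 27305 (3.65%) over all promoters and 256 of 9867 (2.59%) over the genes tested. For MHC class I genes it was 6 of 12 (50%). Genes at least 2-fold higher held it in 39 of 1508 (2.59%) and genes at least 2-fold lower in 31 of 1477 (2.1%). The stretches below are shown because they place the element in IFITM1, IFITM3 and B2M, which were higher in S, and in PLSCR1, which was lower. Capitals mark the match, and the strand is that of the gene.
IFITM1, chr11:313970-314039, plus strand, match from base -40 relative to the start: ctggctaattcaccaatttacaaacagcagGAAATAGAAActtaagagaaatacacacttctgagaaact
IFITM3, chr11:320873-320942, minus strand, match from base -52 relative to the start: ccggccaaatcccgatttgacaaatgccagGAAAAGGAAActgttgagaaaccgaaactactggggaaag
B2M, chr15:44711343-44711412, plus strand, match from base -144 relative to the start: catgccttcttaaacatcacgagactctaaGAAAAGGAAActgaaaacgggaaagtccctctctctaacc
PLSCR1, chr3:146544647-146544716, minus strand, match from base -79 relative to the start: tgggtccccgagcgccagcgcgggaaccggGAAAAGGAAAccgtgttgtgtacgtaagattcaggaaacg
The element thus stands in promoters of genes with values of either sign. B2M, the light chain of class I proteins, had 1192 TPM in P against 5392 in S. A match is a description of letters and not of binding.

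Complement and coagulation genes, which tag or lyse cells and clot blood, had a median of 0.98, with 9 of 18 at least 2-fold higher and 2 lower. CFI, a protease that inactivates complement C3b, had 8.73 TPM in P against 53.6 in S. CLU, a secreted chaperone that blocks the lytic complex, had 1.61 TPM in P against 18 in S. CD59, which blocks the same complex on the cell's own surface, had 116 TPM in P against 575 in S. The complement regulator CD55 lay the other way, at 28.6 TPM in P against 11.9 in S. SERPINE2, an inhibitor of thrombin, had 5454 TPM in P against 1133 in S, the largest loss in TPM of all genes outside the mitochondrial genome. Another serpin, the acute phase protein gene SERPINA3, had 2682 TPM in P against 477 in S. Most regulators of complement named here were therefore higher in S, while both of these abundant serpins were lower.

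Surface ligands for immune cells differed in both directions. The ecto-enzyme gene NT5E, which makes adenosine outside cells, had 19.8 TPM in P against 1.23 in S. PVR, a ligand of the receptors TIGIT and DNAM-1, had 36.6 TPM in P against 9.49 in S, and its relative NECTIN2 23.2 TPM in P against 91.9 in S. Among cytokines LIF, a member of the interleukin-6 family, had 54.6 TPM in P against 2.29 in S, and IL24 144 TPM in P against 33.4 in S. The receptor partner IL1RAP, needed for interleukin-1 signals, had 68.7 TPM in P against 4.87 in S, whereas IL11RA had 4.79 TPM in P against 34.5 in S. SOCS2, a feedback inhibitor of cytokine receptors, had 7.01 TPM in P against 38.1 in S. The list of chemokines and cytokines had a median of 0.20, and that of cytokine receptors, JAKs and STATs 0.15.

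Collagens, the triple-helical proteins of the matrix, were the list with the second highest median. Of 16 collagen genes tested 11 were at least 2-fold higher in S and 3 lower, with a median log2 difference of 1.75. COL5A2, a chain of the fibrillar collagen that sets fibril width, had 2.85 TPM in P against 131 in S. COL9A3, of a collagen that decorates fibrils, was the most abundant of the named chains and had 164 TPM in P against 1126 in S. COL8A1 had 0.151 TPM in P against 18.1 in S, COL16A1 had 11.2 TPM in P against 71.5 in S, and COL18A1, the source of endostatin, 2.12 TPM in P against 25.4 in S. Basement membrane collagen IV went the other way. COL4A1 had 53.7 TPM in P against 8.67 in S and its partner COL4A2 83.3 TPM in P against 14.8 in S, so both chains of the same trimer were lower in S. COL19A1 was lower too, at 29.5 TPM in P against 3.82 in S. The main fibrillar collagen genes COL1A1, COL1A2 and COL3A1 were not listed.

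Enzymes that mature and crosslink collagen had a median of 0.61, with 11 of 29 at least 2-fold higher and 1 lower. PCOLCE2, which helps to cut off the collagen propeptide, had 20.7 TPM in P against 239 in S. The propeptide protease itself, BMP1, had 11.9 TPM in P against 46.9 in S. TGM2, a transglutaminase that crosslinks proteins, had 5.64 TPM in P against 82 in S. The prolyl 3-hydroxylase family was higher in 3 named members, with 3.32 TPM in P against 28.1 in S for P3H2, 46.2 TPM in P against 197 in S for P3H3 and 50.5 TPM in P against 155 in S for P3H4. The 1 member counted as lower was the lysyl oxidase LOXL4, at 169 TPM in P against 35.5 in S.

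Other matrix glycoproteins were split, with 22 of 43 at least 2-fold higher, 8 lower and a median of 1.08. TGFBI, a secreted protein induced by TGF-beta, had 21.3 TPM in P against 361 in S. Basement membrane linkers were higher: the nidogen NID1 had 16.9 TPM in P against 95.2 in S and perlecan, encoded by HSPG2, 3.93 TPM in P against 31.7 in S. MATN2, a matrilin made by glial cells, had 0.113 TPM in P against 15.4 in S. On the lower side stood osteopontin (SPP1), with 143 TPM in P against 30.9 in S, and versican (VCAN), with 8.51 TPM in P against 1.12 in S. The syndecan SDC1, a surface proteoglycan, had 17.6 TPM in P against 1.32 in S.

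Receptors and ligands of attachment were divided too. Of 23 integrin and laminin genes 8 were higher (34.8%) and 7 lower (30.4%), against 15.6% and 16.2% of all genes. The collagen receptor chains ITGA1 and ITGA2 were higher, with 0.864 TPM in P against 8.68 in S for the first and 2.39 TPM in P against 19.5 in S for the second. ITGAV, the alpha chain of vitronectin receptors, had 44.9 TPM in P against 164 in S. By symbol 3 of 8 ITGB genes were at least 2-fold lower and none higher, and these 3 are partner chains of ITGAV. ITGB3 had 119.8 TPM in P against 19.4 in S, ITGB5 137 TPM in P against 42 in S and ITGB8 45.6 TPM in P against 17.7 in S. Laminin chains split likewise, with 1.27 TPM in P against 6.31 in S for LAMA5, 14.5 TPM in P against 63 in S for LAMB2, 152 TPM in P against 61.5 in S for LAMB1 and 12.3 TPM in P against 0.55 in S for LAMA1. The discoidin receptor DDR1, a tyrosine kinase that binds collagen, had 1.35 TPM in P against 27.1 in S.

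Matrix-degrading enzymes and their inhibitors leaned higher. Of 24 metalloproteinase, ADAM and TIMP genes 9 were at least 2-fold higher, 1 was lower, and the same 9 and 1 were counted in all 3 kinds of library. MMP2, the gelatinase, had 29.6 TPM in P against 257 in S. MMP14, the membrane protease that activates it, had 21.2 TPM in P against 94.4 in S, and TIMP2, which takes part in that activation and also inhibits, 111 TPM in P against 509 in S. The membrane-bound MMP15 had 57.1 TPM in P against 422 in S and MMP17 48.3 TPM in P against 218 in S. The collagenase MMP8 was the exception, with 6.15 TPM in P against 0.759 in S. Taken by symbol, 8 of the 11 MMP genes tested were higher, with a median of 2.35.

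Several lists of neural, glial and guidance genes lay above the median gene. Genes reported for neural crest stem-like melanoma cells had a median of 0.87, with 8 of 17 at least 2-fold higher and 2 lower, and the medians in the monosome and polysome libraries were 1.25 and 1.28. Beyond NGFR, the top gene of the comparison at 0.418 TPM in P against 757 in S, the transcription factor gene SOX2 had 3.02 TPM in P against 87 in S. MEF2C, a factor of neural crest and muscle, had 9.53 TPM in P against 86.4 in S. CDH2, or N-cadherin, had 58.9 TPM in P against 164 in S and the adhesion gene CADM1 19.9 TPM in P against 68.9 in S. The retinoid receptor gene RXRG, often used to mark that same state, went against the list with 141 TPM in P against 5.73 in S. AQP1, GFRA2 and RSPO3 were not listed or below the level for entry. NGFR and RXRG, both used as markers of the state, thus had differences of opposite sign.

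Schwann cell and glial genes were mixed, with 8 of 23 at least 2-fold higher, 3 lower and a median of 0.64. CDH19, a cadherin of Schwann cell precursors, had 5.33 TPM in P against 85.4 in S. CRYAB, a small heat shock protein abundant in glia, had 3.47 TPM in P against 126 in S. Against these, the lipid carrier of immature glia FABP7 had 88.2 TPM in P against 15 in S.

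Partners and ligands of the neurotrophin system were listed together with its low-affinity receptor NGFR, which is also counted in the neural crest list. Of 12 genes tested, NGFR among them, 5 were higher and 1 was lower. In all 3 kinds of library 2 were higher and 1 was lower. BDNF, a ligand, had 0.273 TPM in P against 4.26 in S and GDNF 14.2 TPM in P against 30.4 in S. SORT1, a co-receptor for precursor neurotrophins, had 29.8 TPM in P against 46.4 in S, a log2 difference of 0.82. The stress cytokine gene GDF15 was the member counted as lower, with 101 TPM in P against 4.22 in S. Of the high-affinity receptor genes NTRK3 was not listed and NTRK2 was below the level for entry.

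Semaphorins are secreted or membrane-bound guidance cues, read by plexins and neuropilins. Of 25 genes in these families 12 were at least 2-fold higher and 1 was lower, with a median of 0.97. Class 3 ligands led. SEMA3C had 6.24 TPM in P against 327 in S, SEMA3B had 70.7 TPM in P against 404 in S and SEMA3E 1.87 TPM in P against 43.3 in S. Of the receptors PLXNB1 had 0.878 TPM in P against 18.6 in S, PLXNB3 9.48 TPM in P against 36.2 in S and the neuropilin NRP1 7.42 TPM in P against 21.8 in S. DPYSL3, which carries semaphorin signals to the cytoskeleton, was the lower member, with 31.7 TPM in P against 7.41 in S. Ephrin ligands were partly higher (EFNA1, 19.7 TPM in P against 64.6 in S), while EFNA5 was lower, with 10.3 TPM in P against 1.79 in S.

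Protocadherins, neighbouring adhesion genes that give neurons their surface identity, lay above the median gene in 21 of 21 tested (PCDH1, named after its value was seen, had 0.02 and would lie below 0 without that subtraction), and 13 were at least 2-fold higher. Their median was 1.44 and 11 of them were higher in all 3 kinds of library. PCDHGC3, the most abundant, had 45.9 TPM in P against 183 in S. In the beta cluster PCDHB16 had 8.12 TPM in P against 29.7 in S and PCDHB3 4.54 TPM in P against 25.5 in S. The genes of that cluster are alike in sequence, so single members are less certain than the family (10 of 15 PCDHB genes higher, median 1.44). Of other adhesion and synaptic genes ALCAM had 4.1 TPM in P against 64.3 in S and VAMP2, a protein of synaptic vesicles, 13.5 TPM in P against 57.8 in S. NEFL, a neurofilament chain, was lower, with 91 TPM in P against 15.9 in S.

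**Figure D2:**
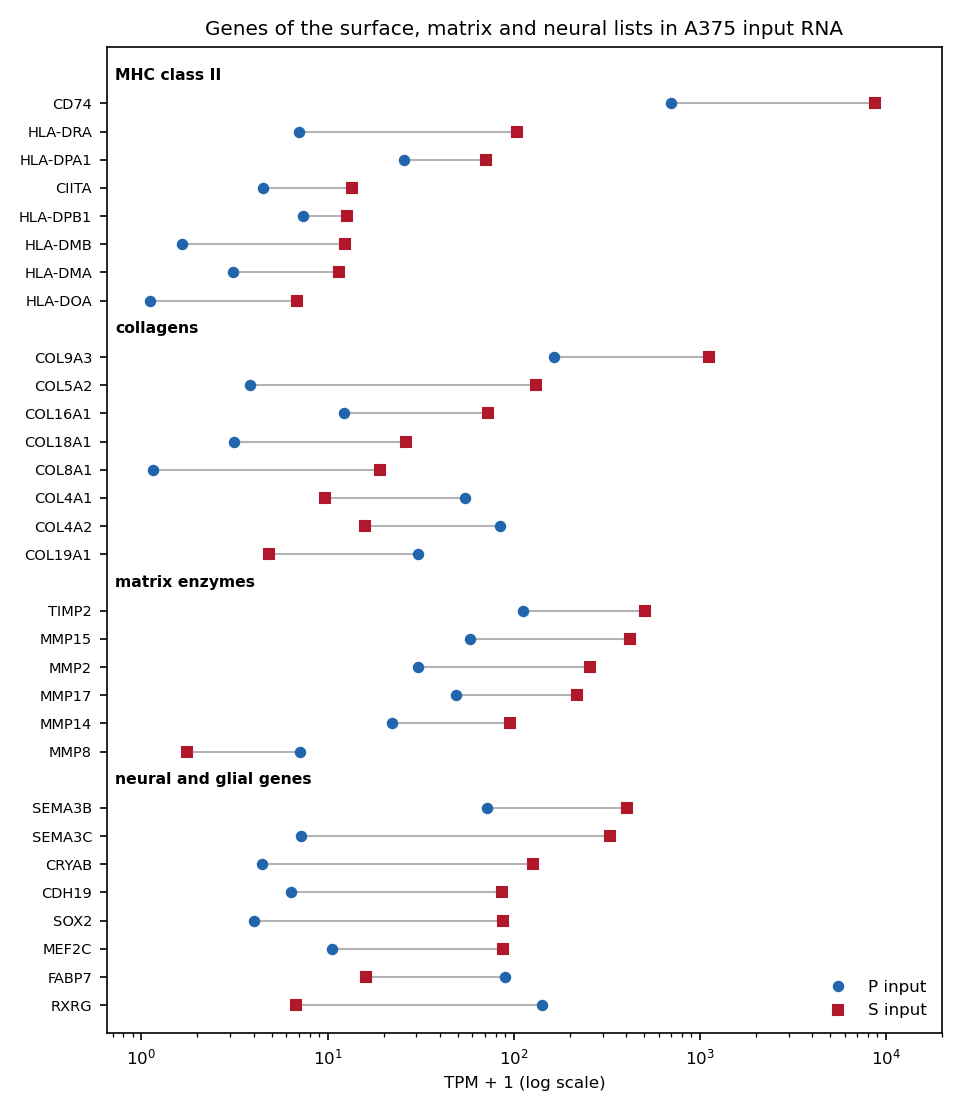
Input TPM + 1 (log axis) in P (blue circles) and S (red squares) for genes of MHC class II, collagens, matrix enzymes and neural or glial lists, 1 library per state. All 8 class II genes lie to the right in S, whereas COL4A1, COL4A2, COL19A1, MMP8, FABP7 and RXRG lie to the left.

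Epithelial-mesenchymal transition factors and cadherins were higher in 7 of 13 genes and lower in none. The set that marks neural crest and melanocytes was higher, with 18 TPM in P against 96.3 in S for SNAI2 and 14.5 TPM in P against 41 in S for ZEB2. The set seen in invasive melanoma was not: ZEB1 had 8.17 TPM in P against 4 in S and TWIST1 17.3 TPM in P against 7.52 in S, log2 differences of -0.68 and -0.90. Genes of the invasive, dedifferentiated state had a median of -0.40. Of these 22 genes 5 were higher (22.7%) and 7 lower (31.8%), against 15.6% and 16.2% of all genes. The hyaluronan receptor gene CD44 had 227 TPM in P against 847 in S, and the growth factor receptor gene FGFR1 16 TPM in P against 2.18 in S.

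Melanocyte identity genes were partly higher (8 of 21 higher, 2 lower, median 0.55), with values from -1.41 to 3.46. TFAP2C, CITED1 and POU3F2, also given below, lie outside that range and are not members of the list. TFAP2A, a factor of neural crest and melanocytes, had 10.1 TPM in P against 65.2 in S, while its relatives were lower, with 15.2 TPM in P against 4.33 in S for TFAP2B and 35.4 TPM in P against 5.44 in S for TFAP2C. MC1R, the receptor for melanocortin, had 16.1 TPM in P against 48.2 in S. S100A1, a calcium-binding protein, had 558 TPM in P against 2123 in S and MIA, a secreted melanoma marker, 235 TPM in P against 637 in S. CITED1, a coregulator in melanocytes, stood at 5.89 TPM in P against 249.9 in S. The neural crest factor gene FOXD3 had 5.77 TPM in P against 50.6 in S, and the neural factor gene POU3F2, known as BRN2, 19.1 TPM in P against 2.43 in S.

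Lysosomal genes were higher as a set. Of 48 hydrolases and their helpers 31 were higher by at least 2-fold and none lower, against 15.6% of all genes higher, with a median of 1.23. GAA, which breaks down glycogen, had 25.3 TPM in P against 153 in S. PLD3, a lysosomal nuclease, had 17.1 TPM in P against 143 in S and TPP1, a peptidase, 20.6 TPM in P against 104 in S. ARSA, which removes sulphate from lipids, had 6.86 TPM in P against 37.5 in S. Enzymes that clear sugars from glycoproteins were higher too, with 23.8 TPM in P against 70.6 in S for MAN2B1 and 17.9 TPM in P against 57.6 in S for FUCA1. At the other end GLA, an alpha-galactosidase, had 63.6 TPM in P against 29.4 in S and GGH 179 TPM in P against 82.4 in S, with log2 differences of -0.89 and -0.91. Cathepsins, the lysosomal proteases, were higher in 9 of 13 genes, and CTSF, which cuts the invariant chain in some cells, had 17 TPM in P against 200.3 in S. CTSS, the usual protease for that chain, had 0.364 TPM in P against 2.1 in S, and CTSL had 129 TPM in P against 73.7 in S.

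Lysosomal membrane proteins and the proton pump differed less. The membrane list had a median of 0.51 (8 of 32 higher), and the main structural proteins LAMP1 and LAMP2 had log2 differences of 0.99 and 0.65. SCARB2, which carries a hydrolase to the lysosome, had 65.4 TPM in P against 247 in S. Subunits of the V-ATPase, the pump that acidifies the organelle, had a median of 0.64. Of 19 pump genes 4 were higher (21.1%, against 15.6% of all genes) and none lower. Pump accessory proteins led. ATP6AP2 had 124 TPM in P against 430.2 in S and ATP6AP1 76.1 TPM in P against 223 in S. Autophagy genes had a median of 0.38, and there the ATG8 proteins of the autophagosome membrane stood out, with 174 TPM in P against 1092 in S for GABARAP and 28 TPM in P against 115 in S for GABARAPL1. TP53INP2, which recruits them, had 3.79 TPM in P against 42.1 in S, and the kinase ULK1, which starts autophagy, 4.94 TPM in P against 14.2 in S. ATG9A, the membrane supplier, was lower, with 18.1 TPM in P against 2.57 in S.

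The MiT/TFE factors, among them MITF and TFE3, bind TCACGTGA in many lysosomal promoters. That octamer was searched on both strands. It contains the E-box CACGTG, so each match to it is also an E-box match. Of the promoters in the table it occurred in 4 of 33 (12.1%) for lysosomal hydrolases, 2 of 13 (15.4%) for V-ATPase genes and 4 of 29 (13.8%) for lysosomal membrane genes. Over all promoters the share was 283 of 27305 (1.04%), and over the genes tested 206 of 9867 (2.09%). Genes at least 2-fold higher held it in 25 of 1508 (1.66%) and genes at least 2-fold lower in 25 of 1477 (1.69%), so that both directions held it about equally often. In the same input libraries TFE3 had 15.6 TPM in P against 34.3 in S and MITF 66.6 TPM in P against 43 in S. The stretches below are those of 4 genes of these lists that were at least 2-fold higher in S, with the octamer in capitals. ATP6V0D1, another pump subunit gene that holds it, had 82.2 TPM in P against 131 in S and is not shown. The stretches show that GAA and PLD3 each carry it in more than 1 place.
GAA, chr17:80101474-80101541, plus strand, match from base -77 relative to the start: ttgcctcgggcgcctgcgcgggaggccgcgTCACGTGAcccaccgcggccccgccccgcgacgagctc
GAA, chr17:80101519-80101580, plus strand, match from base -32 relative to the start: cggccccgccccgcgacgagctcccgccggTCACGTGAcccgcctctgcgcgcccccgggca
PLD3, chr19:40348484-40348551, plus strand, match from base -181 relative to the start: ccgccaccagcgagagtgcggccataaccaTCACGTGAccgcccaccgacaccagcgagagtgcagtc
PLD3, chr19:40348529-40348596, plus strand, match from base -136 relative to the start: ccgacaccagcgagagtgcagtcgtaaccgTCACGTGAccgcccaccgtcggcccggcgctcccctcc
CTSA, chr20:45891279-45891334, plus strand, match from base -26 relative to the start: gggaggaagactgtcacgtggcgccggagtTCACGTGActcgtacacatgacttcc
ATP6V1G1, chr9:114587680-114587747, plus strand, match from base -59 relative to the start: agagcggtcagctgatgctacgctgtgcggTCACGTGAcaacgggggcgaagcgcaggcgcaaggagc
CTSA, the protective protein of lysosomal sialidase, had 118 TPM in P against 441 in S, and the pump subunit gene ATP6V1G1 94.8 TPM in P against 200.4 in S.

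**Figure D3:**
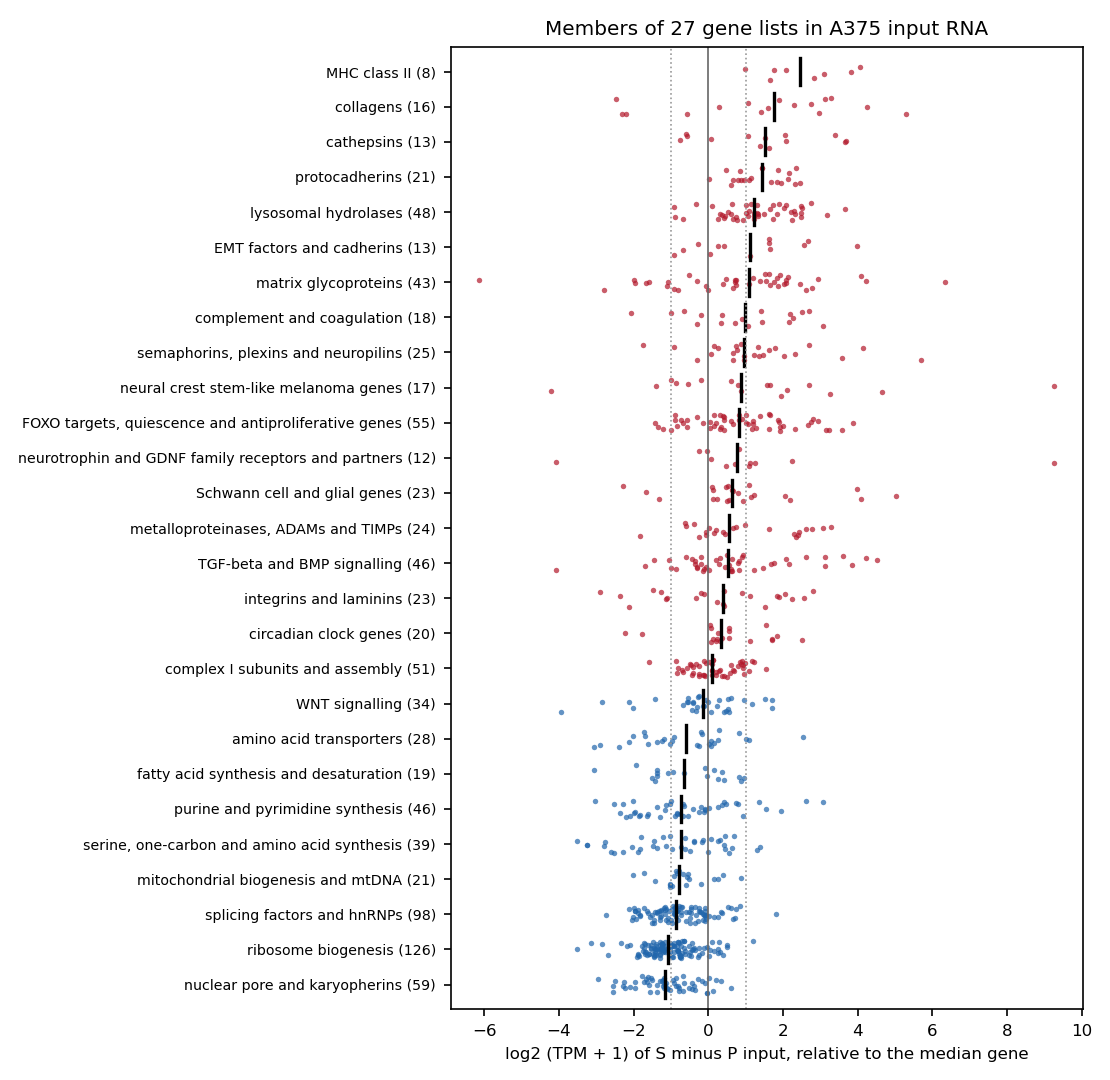
Log2 difference of S minus P input, relative to the median gene, for every member tested of 27 gene lists (points, with black bars for medians and the number of genes in brackets; red and blue mark medians above and below 0). Dotted lines stand at 2-fold; the lists run from MHC class II at the top (2.45) to nuclear pore genes at the bottom (-1.17).

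Quiescence and antiproliferative genes, several of them targets of the FOXO factors that act when growth signals fade, were higher in 25 of 55 and lower in 3, with a median of 0.84. TXNIP, which limits glucose uptake, had 63.5 TPM in P against 375.5 in S. MXD4, an antagonist of MYC, had 2.55 TPM in P against 36.4 in S. YPEL3 had 5.88 TPM in P against 86.4 in S and its relative YPEL5, of a degradation complex, 10.6 TPM in P against 89.2 in S. BTG1, an antiproliferative factor, had 44.1 TPM in P against 195 in S, and the sestrin SESN3, which restrains mTORC1, 2.53 TPM in P against 27.9 in S. The cyclin-dependent kinase inhibitors differed less, with 44.5 TPM in P against 62 in S for CDKN1B and 28.6 TPM in P against 33.2 in S for CDKN1A. GADD45A was lower, at 58.5 TPM in P against 18.2 in S, where its relative GADD45B was higher, at 12.5 TPM in P against 89.5 in S.

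AP-1 factors, pairs of JUN and FOS proteins, differed by member. JUN had 4 TPM in P against 121 in S, FOS 10.8 TPM in P against 43.4 in S and FOSL2 2.32 TPM in P against 18.1 in S. FOSL1, the member tied to MAPK output, went the other way, at 128 TPM in P against 25.2 in S, and JUNB had 30.5 TPM in P against 30.03 in S. The bZIP factor MAF had 9.74 TPM in P against 144 in S. Circadian clock genes were higher in 6 of 20 (30%) and lower in 2 (10%), against 15.6% and 16.2% of all genes. NFIL3 had 10.1 TPM in P against 53.8 in S and DBP 20.7 TPM in P against 54.1 in S. NPAS2, a partner of BMAL1, had 41.5 TPM in P against 6.86 in S.

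BMP and TGF-beta signalling genes had a median of 0.52. Of 46 genes 13 were higher (28.3%) and 4 lower (8.7%), against 15.6% and 16.2% of all genes. The ID genes, classical BMP targets that hold back differentiation, were all 4 higher. ID1 had 51.4 TPM in P against 657 in S, ID2 5.26 TPM in P against 124 in S, ID3 111 TPM in P against 849 in S and ID4 14.7 TPM in P against 42.6 in S. PMEPA1, a feedback inhibitor of TGF-beta, had 35.4 TPM in P against 279 in S, and the activin binder FSTL3 6.04 TPM in P against 73.2 in S. The feedback inhibitor SMAD7 was lower, with 11 TPM in P against 2.24 in S, and so was the activin chain INHBA, with 3.29 TPM in P against 0.807 in S. WNT genes as a list stayed near the median gene (-0.13). Within it the nuclear effector LEF1 had 57.6 TPM in P against 6.12 in S and the secreted WNT antagonist SFRP1 40.3 TPM in P against 1.34 in S.

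Growth factors and insulin signalling held differences of both signs. PTN, a heparin-binding growth factor of the nervous system, had 11 TPM in P against 110.0 in S, FGF1 1.33 TPM in P against 18.7 in S and GRN, or progranulin, 108 TPM in P against 530.1 in S. TGFA, a ligand of the EGF receptor, had 140.2 TPM in P against 26.2 in S and FGF2 6.57 TPM in P against 0.721 in S. Of IGF-binding protein and insulin signalling genes 7 of 31 were higher (22.6%) and 4 lower (12.9%), against 15.6% and 16.2% of all genes. Their median was 0.34 (-0.07 in polysomes), and values ran from -3.59 to 3.24. The lower members of that list are not among the genes named next. IGFBP5 had 6.75 TPM in P against 62.6 in S and IGFBP6 8.62 TPM in P against 54.8 in S, while IGFBP2, IGFBP3 and IGFBP4 were within 2-fold. IRS2, an adaptor of the insulin receptor, had 30.6 TPM in P against 84.1 in S, and ERBB3, the receptor for neuregulins, 121 TPM in P against 227 in S. Receptor tyrosine kinases had 6 of 17 genes higher (35.3%) and 2 lower (11.8%). The median of 0.78 was -0.17 when a mean of at least 5 TPM in the 2 input libraries was asked for.

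Cell death regulators of the BCL2 family and caspases had a median near the median gene (0.24). Of 40 genes 4 were higher (10%) and 3 lower (7.5%), both below the 15.6% and 16.2% of all genes. Single differences were large. BMF, a BH3-only protein that promotes death and is also on the MAPK list left aside, had 2.02 TPM in P against 56.2 in S. PMAIP1, or NOXA, another such protein, had 25.1 TPM in P against 0.161 in S. The protective BCL2 had 5.58 TPM in P against 0.853 in S and BAD, which opposes it, 35.1 TPM in P against 101 in S. Targets of p53 were as often higher as lower (7 and 7 of 36, 19.4% each), near the 15.6% and 16.2% of all genes. TP53I3 had 17 TPM in P against 77.6 in S and PLK2 44.6 TPM in P against 183 in S, but AEN, a nuclease of apoptosis, had 33 TPM in P against 6.67 in S and the death receptor gene FAS 6.42 TPM in P against 0.982 in S.

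Nuclear pore proteins and karyopherins, the channel and the carriers for traffic between nucleus and cytoplasm, had the lowest median of the lists, apart from small nuclear RNAs and the cell cycle and MAPK lists left aside. Of 59 genes 34 were at least 2-fold lower in S, against 16.2% of all genes, and none was higher. Their median was -1.17, and their summed TPM was 4898 in P and 1550 in S. KPNA2, an importin that binds nuclear localisation signals, had 502 TPM in P against 55.8 in S. RAN, the GTPase that gives transport its direction, had 825 TPM in P against 167 in S, and its binding protein RANBP1 649 TPM in P against 96.2 in S. CSE1L, which returns importins to the cytoplasm, had 121 TPM in P against 21.1 in S. Scaffold nucleoporins were lower alike, with 53.9 TPM in P against 7.25 in S for NUP93, 41.5 TPM in P against 5.51 in S for NUP205 and 35.1 TPM in P against 5.44 in S for NUP107. In all 3 kinds of library 8 of the 59 were at least 2-fold lower, against 6.33% of all genes. Several of these carriers are also known to peak with cell division, and the cell cycle list itself was lower in 245 of 262 genes. What part cell cycle position has in the nuclear pore values was not tested.

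Splicing factors and hnRNPs were at least 2-fold lower in 39 of 98 genes and higher in 1 (median -0.87). SNRPB, a core protein of spliceosomal particles, had 825 TPM in P against 174 in S. HNRNPA2B1 had 1265 TPM in P against 272 in S, HNRNPM 415 TPM in P against 81.8 in S and HNRNPR 266 TPM in P against 33.8 in S. Since hnRNP genes have many processed pseudogenes, single values are less certain. The higher member was QKI, a splicing regulator of glial cells, with 25.9 TPM in P against 81.2 in S.

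Ribosome biogenesis factors were lower in 67 of 126 genes, with a median of -1.07. Beyond the best known members, LYAR, a nucleolar regulator, had 185 TPM in P against 17.5 in S. FBL, which methylates ribosomal RNA, had 534 TPM in P against 108 in S, and HEATR1, of the small subunit processome, 30.3 TPM in P against 5.07 in S. NOP53 was the 1 member counted as higher, with 297 TPM in P against 590.2 in S. The E-box CACGTG, which MYC binds, was found in 37 of 108 (34.3%) for their promoters, against 2030 of 27305 (7.43%) over all promoters and 1048 of 9867 (10.6%) over the genes tested. Genes at least 2-fold higher held it in 135 of 1508 (8.95%) and genes at least 2-fold lower in 169 of 1477 (11.4%). Lists that lay higher held it too, in 3 of 8 (37.5%) for cathepsins and 12 of 48 (25%) for the quiescence list. MYC itself had 37.5 TPM in P against 1.8 in S. PWP2, another processome factor, had 12.2 TPM in P and a listed 0 in S, and was also listed at 0 in the S polysome library, where P had 22.6 TPM. A listed 0 can be a failed estimate, so no fold is given for it.

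Small nucleolar RNAs and their host genes were lower as well. By symbol 53 of 58 SNORD genes and 17 of 21 SNORA genes were at least 2-fold lower, with medians of -2.13 and -1.84. Among the hosts SNHG3 had 197 TPM in P against 21.6 in S, SNHG1 165 TPM in P against 27.7 in S and SNHG4 103 TPM in P against 9.63 in S. Small nucleolar RNAs lie inside introns of host genes and carry no poly(A) tail, and the labels' protocols state poly-T bead selection. Reads of host and guest therefore cannot be told apart here. Polymerase III transcripts and the polymerases were lower in part. RMRP had 48.1 TPM in P against 7.07 in S. The list of nuclear and small noncoding RNAs was lower in 8 of 9 in input, but in only 2 in all 3 kinds of library. Its median was -2.41 in input, 4.42 in monosomes and 0.21 in polysomes. Of the paired polymerase subunits POLR3G was lower, with 48.5 TPM in P against 7.52 in S. POLR3GL was higher, with 80.8 TPM in P against 252 in S.

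Chaperones of the cytosol and mitochondria were lower in 25 of 46 genes and higher in 5. HSPD1, the mitochondrial chaperonin, had 1131 TPM in P against 157 in S, and TCP1, of the ring that folds actin and tubulin, 315 TPM in P against 69.9 in S. DNAJB2, a co-chaperone of neurons, was higher, with 19.1 TPM in P against 80.7 in S, and PFDN5, of prefoldin, had 383 TPM in P against 924 in S. Of tubulins, the clients of that ring, and other microtubule proteins 10 of 31 were lower and 7 higher: TUBA1B had 2886 TPM in P against 540.1 in S and TUBB4B 851 TPM in P against 213 in S. STMN1, which destabilises microtubules, had 590.3 TPM in P against 103 in S.

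Nucleotide synthesis and salvage genes were at least 2-fold lower in 19 of 46 and higher in 5 (median -0.72). GMPS, which makes GMP, had 56.2 TPM in P against 9.35 in S. PNP, of purine salvage, had 80.7 TPM in P against 15.7 in S and UCK2, of pyrimidine salvage, 49.8 TPM in P against 7.68 in S. Some kinases that balance nucleotides were higher, with 26.8 TPM in P against 202 in S for NME3, 175 TPM in P against 449.8 in S for NME4 and 14.8 TPM in P against 52.3 in S for AK1. ADSS1, the muscle form of an AMP-making enzyme, had 2.33 TPM in P against 16.9 in S.

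Serine, one-carbon and amino acid synthesis had 18 of 39 genes lower and 2 higher (median -0.73). MAT2A, which makes the methyl donor S-adenosylmethionine, had 329.8 TPM in P against 46.2 in S. PHGDH, the first enzyme of serine synthesis, had 143 TPM in P against 20.6 in S, and MTHFD1, of the cytosolic folate cycle, 125 TPM in P against 15 in S. ASNS, which makes asparagine, had 113 TPM in P against 13.6 in S and CBS, which starts cysteine synthesis, 20.7 TPM in P against 1 in S. GLUL, or glutamine synthetase, was higher, with 8.82 TPM in P against 20.3 in S. Amino acid carriers were lower in 12 of 28 and higher in 3, with values from -3.05 to 2.53. On the lower side SLC38A1 had 50.8 TPM in P against 4.45 in S and the arginine carrier SLC7A1 28.5 TPM in P against 2.45 in S. The glutamine carrier SLC1A5 had 193 TPM in P against 50.5 in S. SLC7A11, the cystine exchanger, had 16.8 TPM in P against 2.85 in S. SLC38A9, an arginine sensor of the lysosome, had 9.47 TPM in P against 17.5 in S. The plasma membrane carriers named here were all lower, but the 3 carriers counted as higher are not all named.

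Lipid synthesis genes differed mostly towards lower values. Of 19 fatty acid genes 8 were lower and none higher. FASN, the fatty acid synthase, had 90.3 TPM in P against 20.01 in S, ACACA, which feeds it, 23.3 TPM in P against 7.21 in S and the desaturase SCD 149.7 TPM in P against 61.3 in S. ELOVL2, which lengthens polyunsaturated chains, had 20.8 TPM in P against 1.3 in S. In the cholesterol list 7 of 29 genes were lower (24.1%) and 2 higher (6.9%), against 16.2% and 15.6% of all genes. TM7SF2, a sterol reductase, was higher, with 7.66 TPM in P against 63.2 in S. APOE, which carries lipid out of cells, had 52.5 TPM in P against 182 in S, and MGLL, a lipase of monoglycerides, 65.8 TPM in P against 4.87 in S.

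Fatty acid oxidation genes had 8 of 35 higher (22.9%) and 2 lower (5.71%), against 15.6% and 16.2% of all genes. Their median of 0.18 was -0.02 without subtracting the median gene. ACADVL, of long-chain oxidation, had 190.3 TPM in P against 487 in S. CPT1A, the gate for entry of fatty acids, had 5.78 TPM in P against 15.3 in S. PDK4, which shuts off pyruvate oxidation, was lower, with 19.1 TPM in P against 1.65 in S, where PDK2 was higher, with 7.81 TPM in P against 24.7 in S.

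Mitochondrial lists did not share 1 direction. TFAM, which packages and transcribes mitochondrial DNA, had 62.3 TPM in P against 15.8 in S. Its list, of biogenesis and mitochondrial DNA, had a median of -0.79, with 6 of 21 lower. Import and dynamics genes had 8 of 48 lower, close to the 16.2% of all genes, and a median of -0.36. The import proteins TIMM50 and TOMM40 were among those lower, with 126 TPM in P against 28 in S and 180.0 TPM in P against 45.1 in S. Subunits and assembly factors of complex I had a median of 0.11 (-0.08 without subtracting the median gene), with NDUFA13 at 585 TPM in P against 1504 in S. Of the mRNAs of the mitochondrial genome 2 of 13 passed 2-fold upwards and none downwards, close to the 15.6% of all genes higher. Their median was 0.50 in input, -1.91 in monosomes and 1.45 in polysomes. The higher ones were MT-ND1 and MT-ND6, with 2637 TPM in P against 8613 in S and 2481 TPM in P against 14383 in S, and the lowest was MT-ND4L at -0.95. MT-ND1 and MT-ND6 lie on opposite strands, and MT-ND6 reads cannot be told from antisense reads without strand. All mitochondrially encoded genes together held 16.2% of listed TPM in P and 20.7% in S.

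**Figure D4:**
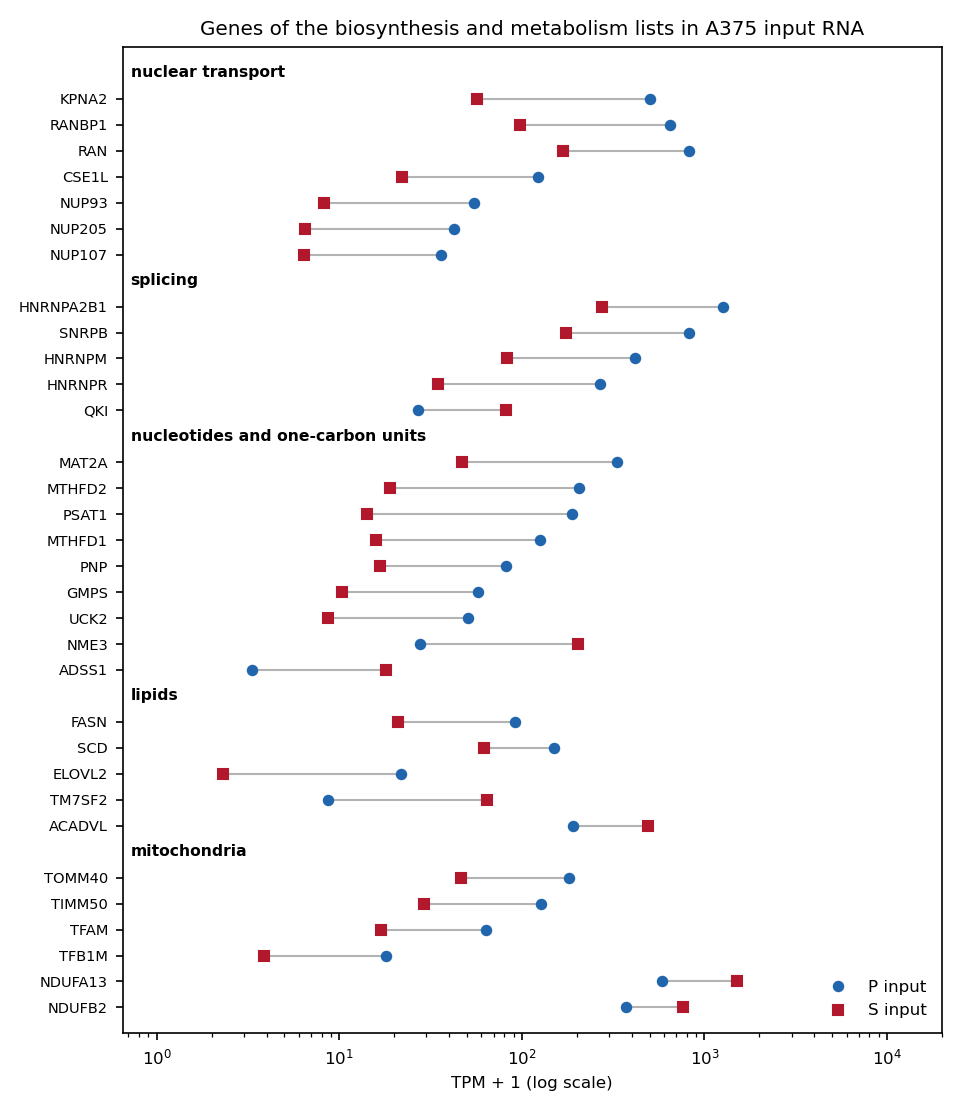
Input TPM + 1 (log axis) in P (blue circles) and S (red squares) for genes of nuclear transport, splicing, nucleotide and one-carbon metabolism, lipids and mitochondria, 1 library per state. Most genes lie to the left in S; QKI, NME3, ADSS1, TM7SF2, ACADVL, NDUFA13 and NDUFB2 lie to the right.

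Iron, redox and trace element genes differed singly. FTL, the ferritin light chain, had 2246 TPM in P against 5853 in S and TFRC, the transferrin receptor, 153 TPM in P against 40.3 in S. NCOA4, which delivers ferritin to the lysosome, had 51.3 TPM in P against 117 in S. Of the selenoproteins SELENOM had 13.9 TPM in P against 128 in S and SELENOW 138 TPM in P against 549.6 in S. Thioredoxin, encoded by TXN, and its reductase TXNRD1 were both lower, with 500.0 TPM in P against 159 in S and 189.8 TPM in P against 63.4 in S. The metallothionein MT2A had 692 TPM in P against 204 in S, while MT1X had 68.6 TPM in P against 146 in S.

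Chromatin and repair genes differed by list. Histone methyltransferases and demethylases were lower in 9 of 52 and higher in 2, the first close to the 16.2% of all genes. NSD2, a methyltransferase for histone H3 lysine 36, had 41 TPM in P against 4.6 in S, and EED, a core part of Polycomb repressive complex 2, 32.9 TPM in P against 6.72 in S. Deacetylases, sirtuins and acetyltransferases had 7 of 30 higher (23.3%, against 15.6% of all genes) and 3 lower, with a median of 0.44. By symbol 4 of 12 HDAC genes were at least 2-fold higher and 1 was lower, with a median of 0.58. The lower one was HDAC2, of class I, with 93.3 TPM in P against 17.4 in S. HDAC5 and HDAC9, of class IIa, had 11.7 TPM in P against 79.4 in S and 1.49 TPM in P against 9.26 in S. Single genes named here do not stand for their class. Mismatch and excision repair genes were lower in 12 of 45 (26.7%) and higher in 1 (2.22%), against 16.2% and 15.6% of all genes. MSH6, of mismatch repair, had 74.7 TPM in P against 18.8 in S. XRCC6, or Ku70, of end joining, had 534 TPM in P against 193 in S. The cytidine deaminase gene APOBEC3B was among the 25 lowest genes, with 64 TPM in P against 2.48 in S.

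Histone genes differed in both directions, with 14 higher and 9 lower of 31. H2AC6 had 2.96 TPM in P against 81.1 in S and H2BC12 9.17 TPM in P against 187 in S. H4C5 had 29.9 TPM in P against 3.57 in S and the variant H2AX 136 TPM in P against 27.3 in S. H2AZ1, a replacement variant, had 3190 TPM in P against 295 in S. Histone copies are near-identical, so which copy holds a read is uncertain. Replication histone mRNAs also lack a poly(A) tail, so poly-T selection limits what their TPM shows.

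Cytoskeletal and signalling genes held some of the largest single differences. MYLK, which activates non-muscle myosin, had 1.22 TPM in P against 68.3 in S, and the light chain MYL6 862 TPM in P against 3745 in S. The heavy chain MYH10 was lower, with 40.4 TPM in P against 7.28 in S. RND3, an atypical small GTPase that opposes contraction, had 100.3 TPM in P against 2.58 in S, while CDC42EP5, an effector of CDC42, had 4.43 TPM in P against 93.1 in S. RRAS, a RAS relative tied to adhesion, had 17.2 TPM in P against 167 in S and the adaptor gene SHC4 3.94 TPM in P against 30.1 in S. Channels and junctions included GJB1, or connexin 32, with 82.3 TPM in P against 0.704 in S, and the calcium channel gene ORAI3, with 6.52 TPM in P against 74.6 in S.

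Of the 25 genes with the largest positive and the 25 with the largest negative difference (mean of at least 10 TPM in the 2 inputs), several belong to none of the families above. NREP, a protein of regenerating neurons, had 21 TPM in P against 501 in S and MOXD1, a copper enzyme, 1.27 TPM in P against 97.3 in S. VGF, a precursor of secreted neuropeptides, had 976 TPM in P against 24.1 in S. CYB5R2, a cytochrome b5 reductase, had 82.9 TPM in P against 0.602 in S, and SYTL5, a Rab27 effector, 65.2 TPM in P against 0.794 in S. RLBP1, a retinaldehyde carrier best known from the retina, had 28.3 TPM in P against 0.277 in S. NPPC, which encodes C-type natriuretic peptide, had 35 TPM in P and a listed 0 in S. BOLA2 was among the highest, with 1.81 TPM in P against 83.1 in S, but it has a near-identical copy and its value is uncertain. Under 0.5 TPM in P and at least 20 TPM in S were 6 genes, and 20 genes had the reverse pattern. The 20 included cell division genes such as HMMR (60.5 TPM in P against 0.22 in S) and the small nucleolar RNAs SNORD17, SNORD73A and SNORD78.

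In terms of RNA content, 12 genes with the largest gain in TPM held 2.27% of listed TPM in P and 7.21% in S. They were CD74, EEF1A1, B2M, FTL, CCN3, PSAP, MYL6, SH3BGRL3, S100A1, ACTG1, ACTB and IFITM3. EEF1A1, the translation elongation factor, had 7342 TPM in P against 14543 in S in input but was lower in S in the polysome library (9679 TPM against 5507). ACTB, often taken as a constant gene, had 2185 TPM in P against 3540 in S, a log2 difference of 0.89. The 12 with the largest loss held 5.66% in P and 2.12% in S. Another gene often taken as constant, GAPDH, was among them, with 10355 TPM in P against 7607 in S. Its log2 difference was only -0.25, so it stayed well within 2-fold of the median gene. NPM1, of the nucleolus, had 3971 TPM in P against 1300 in S.

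The monosome and polysome libraries come from gradient fractions of the same states and are no replicates of the input. In the polysome libraries the median of MHC class II genes was 3.15, that of nuclear pore genes -1.17 and that of lysosomal hydrolases 0.89. In the monosome libraries those medians were 1.48, -0.57 and 0.86. CD74 had 1550 TPM in the polysome library of P against 15305 in that of S. KPNA2 had 869 and 157 TPM in the same libraries, and SOX2 3.82 and 108. The ribosome biogenesis list, at -1.07 in input, was at -0.77 in polysomes and -0.26 in monosomes. Chaperones stood at -1.11 in input, -0.42 in polysomes and -0.10 in monosomes. For both lists the 3 medians were below 0, but few single members were lower in every kind of library. In all 3 kinds 12 of 126 ribosome biogenesis genes and 1 of 46 chaperones were at least 2-fold lower, against 6.33% of all genes. In input alone the counts were 67 and 25. At least 2-fold higher in all 3 kinds were 4 chaperones.

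**Figure D5:**
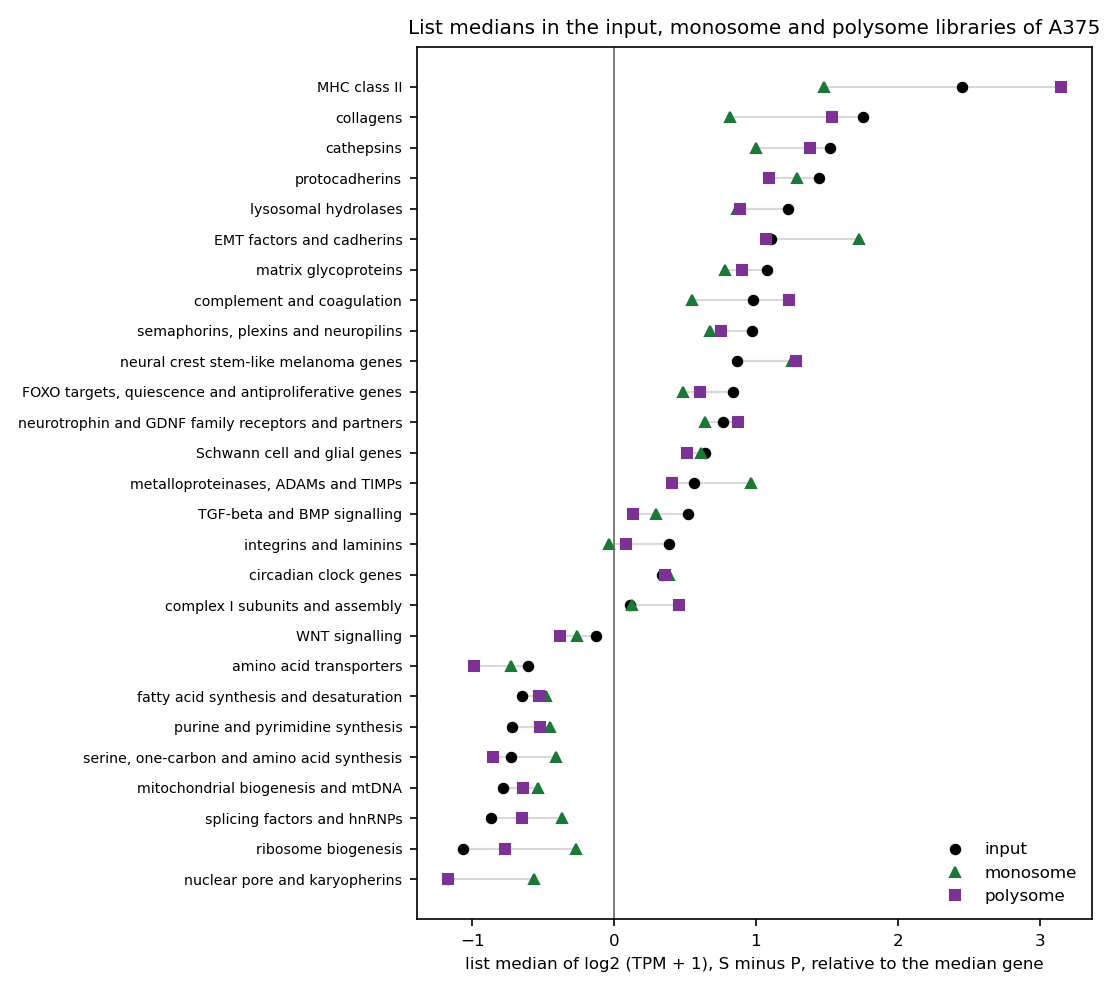
Median log2 difference of S minus P for the same 27 lists in the input (black circles), monosome (green triangles) and polysome (purple squares) libraries of A375, each relative to the median gene of its own fraction. The integrin and laminin list has medians on both sides of 0; the other lists keep 1 side in the 3 kinds of library.

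Medians of the same lists in Yumm1.7 input, by capitalised mouse symbol, are set beside these as values with no test. Collagens were at 1.75 in A375 and 2.67 in Yumm1.7, and nuclear pore genes at -1.17 and -1.32. Serine and one-carbon genes were at -0.73 and -1.38. The invasive state list had -0.40 in A375 and 1.20 in Yumm1.7. MHC class II symbols differ between the species and were not matched.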

How the data were processed

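The libraries are polysome profiling RNA-seq libraries, with mRNA selected on poly-T beads and random priming per the labels' protocols. The authors deposited TPM per gene, 1 table per cell line. Per the submitters' processing notes the builds were GRCh38 and GRCm38. For the aligner, quantifier, annotation and strand, nothing is given in the sources used here.

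Values of A375 S and P input were compared as log2(TPM + 1) with a pseudocount of 1, less the median gene (Python 3.11.15, pandas 2.3.3, numpy 2.4.6). Genes entered at a mean of at least 1 TPM over 6 libraries, and 2-fold differences were counted. With 1 library per group nothing was tested. Code was tested on simulated data. The members and the 117 gene lists were chosen with earlier results of these data known.

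A rule set which genes could be named: the 25 highest and 25 lowest (mean of at least 10 TPM) and the 12 largest gains and losses. Up to 8 members per list and those 2-fold against its direction could be named too. So could genes under 0.5 TPM in 1 input and at least 20 in the other. All identity, neural crest, FOXO, lysosome and neurotrophin members were open to naming. Not all of these genes are named, and members against a list's direction can be missing. The figures and the other genes named (absent markers, family examples) follow these lists. Most ribosomal protein genes of A375 were not analysed here, and values of some other genes are not reported here. Promoters and lengths came from RefSeq (GRCh38.p14) and GENCODE release 29. Pseudocount, entry level, centring and removal of mitochondrial genes were varied.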

Additional observations from a re-analysis of the deposited data

Results flagged for a closer look

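Of 108 lists with at least 5 genes tested in both cell lines, 23 had input medians (S minus P, relative to the median gene) of opposite sign. Among the 28 lists with medians beyond 0.5 in both lines, 2 did, and their values are given here. The difference between the lines was not tested, since each group holds 1 library. Interferon-stimulated genes had a median of 0.58 in A375 (41 genes tested) and -0.85 in Yumm1.7 (44). AP-1 factors had a median of 1.11 in A375 (7 genes tested) and -0.81 in Yumm1.7 (5), so the members differ between the lines. In the A375 monosome and polysome libraries the AP-1 medians were -0.05 and 0.49.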

How the results depend on the processing

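With a pseudocount of 5 the counts were 1140 higher and 1292 lower, against 1969 and 2048 with 1, which the construction of the scale brings, since a larger pseudocount shrinks low genes. Under the other 7 alternatives the counts stayed within 1.5 times (1454 to 2273 higher, 1549 to 2642 lower). Of 867 genes open to naming and at least 2-fold apart, 686 remained so with a pseudocount of 5 and 808 without subtracting the median gene. None of them changed sign under any alternative run. Of 47 lists with a median beyond 0.5, 33 remained beyond it in each of those settings. Of these 47, 1 list median changed sign, that of receptor tyrosine kinases, which was -0.17 where a mean of at least 5 TPM in the 2 inputs was asked for (fewer genes tested). Of the other 66 lists, whose medians lay within 0.5, 18 changed sign without subtracting the median gene, and 0 to 6 under each other alternative. No paired analysis was possible because each group holds 1 library and the labels give every group the same replicate number. Depth is unknown, so no counting error limits could be set on low values.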

Other observations

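Some families that belong to no group above were also measured, and their values are given without a test. HOX genes had 6 of 32 members at least 2-fold higher and 3 lower, against 15.6% and 16.2% of all genes, which is near the background. HOXB9 had 15.5 TPM in P against 2.65 in S, HOXD8 11.2 TPM in P against 28.6 in S and the HOX cofactor gene MEIS3 7.28 TPM in P against 62.1 in S. Tetraspanins, which organise proteins in the membrane and in exosomes, were higher in 9 of 19 (47.4%) and lower in 3 (15.8%). CD9 had 234 TPM in P against 584 in S and CD81 152 TPM in P against 354 in S. TSPAN13 had 168 TPM in P against 21.6 in S. Genes of sialic acid and glycan addition differed singly, with 120.0 TPM in P against 475 in S for GALNT2 and 56.9 TPM in P against 11.5 in S for ST6GAL1. Of the small GTPases of vesicle traffic RAB26 had 9.3 TPM in P against 61.5 in S and RAB4B 4.06 TPM in P against 34.2 in S. Among cilium and Hedgehog genes GAS1, a co-receptor for Hedgehog, had 4.68 TPM in P against 39 in S. Cancer-testis antigens had 2 of 27 higher and 3 lower, both below the shares of all genes, and MAGEA1 had 155 TPM in P against 59 in S.

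Grouping by symbol alone, over 339 families with at least 6 genes tested, placed HLA genes highest (9 of 10 at least 2-fold higher, median 2.64). The augmin subunits HAUS, which nucleate spindle microtubules, were at -1.40 (7 of 8 lower). NBPF genes, a family of near-identical copies, were at -1.34 (9 of 13 lower). MAN genes, largely mannosidases, were at 1.27 (7 of 10 higher).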
